A study of Mus musculus with 10 samples.

Results

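The neocortex of mouse embryos at E14 was compared with that at E12.5 in 4 of the 10 libraries of the series: 2 libraries of E14 and 2 of E12.5. The deposited table lists 6147 genes, and the 6048 genes whose mean over the 10 libraries reached 1 TPM were compared. TPM is a gene's share of all transcripts after division by its length, on a fixed total. Of the 99 genes left out, those nearest the limit were Mmrn2, with a mean of 0.990 TPM, and Erap1, with 0.953 TPM. Just inside it were Fermt3, with a mean of 1.0 TPM, and Matn4, with 1.03 TPM. The other 6 libraries are of E15.5, E17 and P0, the day of birth, and served here to estimate the spread and as a later reference.

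All mice were CD1, an outbred strain, labelled wild type, and no group carried an allele or a treatment. E12.5 and E14 are embryonic stages counted in days of gestation. Whole neocortex was frozen and pulverised in a detergent buffer, the lysate was cleared by centrifugation, and polyadenylated RNA was made into stranded libraries. The libraries of a stage are biological duplicates by the series' design text. Whether each came from 1 embryo, a pooled litter or a separate mother is not stated, so the p-values measure the spread between these libraries.

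The early neocortex is a sheet of dividing neuroepithelial cells that line the ventricle and turn into radial glia, the apical progenitors of the cortex. These progenitors first multiply, then increasingly divide to give neurons, either directly or through intermediate progenitors. The first neurons form the preplate and then the deep layers, with upper-layer neurons following. A progenitor that leaves the cell cycle silences the genes of DNA replication and mitosis and switches on those of the neuronal cytoskeleton and, later, of the synapse. Neocortex at these ages also contains blood vessels with nucleated red cells and can carry attached meninges and choroid plexus.

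The genes that mark cortical tissue were present in all 4 libraries. Pax6, a transcription factor of cortical progenitors, was at 126 and 130.5 TPM at E12.5 and at 111 TPM in both E14 libraries. Tbr1, a transcription factor of early cortical neurons, was at 141 and 147 TPM at E12.5 and at 159 and 145 TPM at E14. Eomes, which marks intermediate progenitors, was at 163 and 172 TPM and then at 171 and 164 TPM. Of these 3 genes none passed the test, and the libraries of the 2 stages overlapped for Tbr1 and Eomes. Gfap, a marker of mature astrocytes, was at 0.343 TPM or less in all 4 libraries.

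Replicates lay close together. The difference between replicates had a standard deviation over genes of 0.0970 on the log2(TPM + 1) scale at E12.5 and 0.108 at E14, against 0.285 at E17. No gene (0) differed by 1 or more between the replicates of either stage. The first principal component of the 4 libraries took 84.1% of their variance and set the E12.5 libraries, at -8.87 and -9.78, apart from the E14 libraries, at 9.26 and 9.39. Read totals are unknown, so no counting error can be set beside a TPM value.

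Most differences over this interval were small, and they went in both directions. With limma over all 10 libraries and Benjamini-Hochberg adjustment at 0.05, 528 genes (8.73%) were called, 239 higher at E14 (3.95%) and 289 lower (4.78%). For a larger number, 4236 genes or 70.0%, both E14 libraries lay on the same side of both E12.5 libraries: 1491 genes (24.7%) were above and 2745 (45.4%) below. All 528 called genes were among them. At an unadjusted p under 0.05 stood 1486 genes, 555 higher and 931 lower. The median change of all genes was -0.06 on the log2(TPM + 1) scale, with quartiles of -0.18 and 0.07. Among called genes the median change was 0.53 for those that rose and -0.48 for those that fell. A change of 1 or more was reached by 7 called genes upward and by 4 downward, whereas 164 and 207 called genes changed by 0.4 to 0.8.

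The number of calls depended on which libraries informed the spread. Leaving out libraries of other stages keeps the estimated change of each gene as it was, so those fits could not change a direction. The replicates of E17 were the farthest apart of the 5 stages, and the fit shares 1 spread over all stages. Without both E17 libraries 661 genes (10.9%) were called higher and 1109 (18.3%) lower, and with the 4 libraries of E12.5 and E14 alone 850 (14.1%) and 1629 (26.9%). Each of the 528 calls remained in both fits. Without E17 replicate 1 the fit called 1769 genes and without E17 replicate 2 it called 1765, and without either E15.5 replicate it called 300. Leaving out 1 of the 4 compared libraries leaves a stage with 1 library, which is then taken to vary like the others, and fewer genes passed: 65 and 83 genes without replicate 1 or replicate 2 of E12.5, and 92 and 103 without replicate 1 or replicate 2 of E14. Of the 528 calls, 54 passed in all 4 of these fits, 47 of them higher at E14 and 7 lower. Median-of-ratios scaling called 432 genes higher and 303 lower, so that 58.8% of calls were higher in place of 45.3%.

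**Figure D1:**
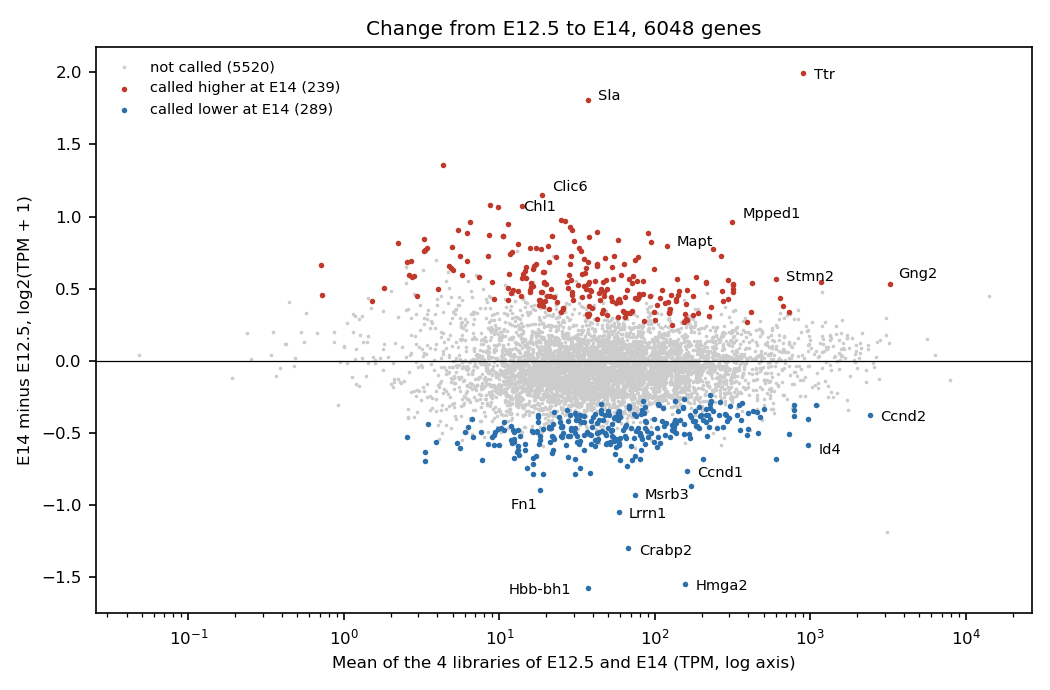
Change from E12.5 to E14 of each of the 6048 genes tested (vertical axis, difference of means on the log2(TPM + 1) scale) against its mean over the 4 libraries (horizontal log axis, TPM). Red points are the 239 genes called higher at E14, blue points the 289 called lower and grey points the rest; most called genes lie between 0.4 and 0.8 in size, at all levels of expression.

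Transcripts of cells other than neural ones also differed between the stages, and in bulk tissue fewer cells of a type and less RNA per cell cannot be told apart. The 13 erythroid genes summed to 6198 and 6472 TPM at E12.5 and to 4101 and 3942 TPM at E14. The difference in the sum was that of Hbb-y, an embryonic globin, at 4268 and 4429 TPM and then at 1951 and 1863 TPM, which missed the threshold (change -1.19, SE 0.36, limma adjusted p = 0.0618). The other 12 genes summed to 1929 and 2043 TPM at E12.5 and to 2150.0 and 2079 TPM at E14. Hbb-bh1, another embryonic globin, fell from 49.98 and 61.2 TPM to 21.8 and 14.7 TPM (change -1.57, SE 0.17, limma adjusted p = 4.37e-04). In all 3 of 13 erythroid genes (23.1%, beside 4.78% of all genes) were called lower (Hbb-bh1, Slc4a1 and Tfrc) and 0 higher. Both E14 libraries lay below both of E12.5 for 8 of the 13 and above them for 3, beside 45.4% and 24.7% of all genes.

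The 15 genes of meninges and mesenchyme summed to 959 and 952 TPM at E12.5 and to 737 and 734 TPM at E14. Of the 15, 6 (40.0%) were called lower, beside 4.78% of all genes. The same list summed to between 156 and 278 TPM in the 6 libraries of later stages. The choroid plexus and hem list, of 7 genes, summed to 1541 and 1321 TPM and then to 2309 and 2405 TPM, a rise carried by Ttr: the other 6 genes summed to 1102 and 1028 TPM and then to 930.0 and 913 TPM. Of the 7 genes 2 (28.6%) were called higher (Ttr and Clic6) and 1 (14.3%) lower (Slc12a2), with a median of -0.04. Over all genes these shares were 3.95% and 4.78%. Ttr, the thyroid hormone carrier that choroid plexus secretes, had the largest rise of all genes, from 438 and 293 TPM to 1379 and 1491 TPM (change 2.0, SE 0.21, limma adjusted p = 4.37e-04), and averaged 3.78 TPM at E15.5. Clic6, a chloride channel gene of the same list, rose from 13 and 9.61 TPM to 26.1 and 26.0 TPM and averaged 0.0758 TPM at E15.5. No source used here says whether the dissection differed between E14 and E15.5, so a change with age and a change in what was dissected cannot be told apart for such genes. Of the vascular genes, 4 could be tested and 1 was called: Cdh5, the cadherin of endothelial cells, fell from 13.9 and 15.3 TPM to 9.26 and 9.78 TPM. Microglia and leukocyte genes, 5 in all, summed to between 45.2 and 53.4 TPM over the 4 libraries with no call. None of the tested genes of these lists was at 0 at E12.5 or E14. When 1 of the 4 libraries was left out, 1 or 2 erythroid genes and 2 to 4 meningeal genes were called lower, Ttr and Clic6 were still called higher, and Cdh5 was not called. The part of these cells in the results below was not tested.

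Genes of DNA replication and of mitosis were lower at E14 throughout. Of 44 replication genes, 34 were called lower and 0 higher, against 4.78% of all genes called lower, and the median change was -0.47 beside -0.06 for all genes. Of 51 mitosis genes, 37 were called lower and 0 higher, with a median of -0.50. All 44 and all 51 had both E14 libraries below both E12.5 libraries, against 45.4% of all genes. Top2a, which untangles DNA, is in both lists.

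Within replication, calls covered the helicase, the polymerases, the clamp and the supply of building blocks. Mcm2, a subunit of the helicase that opens the double helix, fell from 78.7 and 86.8 TPM to 52.9 and 46.1 TPM (change -0.73, SE 0.14, limma adjusted p = 0.0101). Rrm2, the subunit of ribonucleotide reductase that limits the supply of DNA building blocks, fell from 244 and 261 TPM to 160.2 and 154 TPM (change -0.68, SE 0.08, limma adjusted p = 8.60e-04). Uhrf1, which carries DNA methylation through replication, fell from 84.5 and 92.6 TPM to 61.6 and 48.3 TPM. The stages did not overlap for any of the 3 genes. Pcna, the clamp that holds the polymerase on DNA, and all 6 tested subunits of the Mcm2 to Mcm7 ring were called lower. The smallest differences in the list were those of Gins4, Rpa3 and Orc2, at -0.15, -0.16 and -0.20, and none of the 3 passed.

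Among mitosis genes, Spc24, a kinetochore protein, fell from 102 and 97.2 TPM to 63.4 and 60.3 TPM (change -0.68, SE 0.11, limma adjusted p = 0.00388). Kif11, the motor that separates the spindle poles, fell from 62.9 and 60.7 TPM to 42.2 and 40.9 TPM (change -0.56, SE 0.10, limma adjusted p = 0.00674). Cdk1, the kinase that starts mitosis, fell from 193 and 196 TPM to 148 TPM in both E14 libraries. The stages stayed apart for every one of these genes, and changes over the 51 genes ran from -0.68 (Spc24) to -0.21 (Bub3). The summed level of the mitosis list was 4148 and 4140 TPM at E12.5 and 3010 and 2954 TPM at E14. With E14 or E12.5 reduced to 1 library, at most 4 of the 44 replication genes and at most 1 of the 51 mitosis genes were called; without both E17 libraries it was 40 and 51, and under the 4 libraries alone 44 and 51.

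The promoters of these genes share short sequences. RefSeq (GRCm38.p6) gives a promoter window of 250 bases before to 50 after the start for 4769 of the 6048 genes. The words searched, on both strands, are textbook elements of cell cycle promoters: TTTGAA, the core of the cell cycle homology region, CCAAT, the NF-Y box, and TTTCGCGC or TTTGGCGC, the E2F site. TTTGAA was found in 31 of the 44 mitosis promoters (70.5%), against 11.3% of all promoters and 9.30% of those of genes called higher. It was also found in 23.2% of the promoters of genes called lower, and in 15.6% of those once the mitosis and replication lists were left out. In 2 lists that mostly rose it was in 17.4% of newborn neuron and 21.6% of presynaptic promoters. CCAAT was in 63.6% of mitosis promoters and 63.9% of replication promoters, against 38.4% of all, 53.5% of those called lower and 29.1% of those called higher. The E2F word was in 7 of 36 replication promoters (19.4%), against 1.80% of all, 5.26% of those called lower and 0.581% of those called higher. Among genes called lower outside the mitosis and replication lists, CCAAT was in 50.9% of promoters and the E2F word in 1.8%. TTTGAA was in 16.7% of replication promoters.

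These mitosis promoters were taken by size of fall among the genes called lower that hold the hexamer in the 150 bases before the start. The hexamer lies close to the start in each. The 150 bases before the RefSeq start are given 5′ to 3′ on the strand of the gene in GRCm38.p6; capitals mark TTTGAA and CCAAT or their reverse complements TTCAAA and ATTGG. Top2a lies on the minus strand at chr11:99024190-99024339, Espl1, the protease that frees sister chromatids, on the plus strand at chr15:102296143-102296292, Kif11 on the plus strand at chr19:37376232-37376381 and Kif15, another spindle motor, on the plus strand at chr9:122950931-122951080.
Top2a: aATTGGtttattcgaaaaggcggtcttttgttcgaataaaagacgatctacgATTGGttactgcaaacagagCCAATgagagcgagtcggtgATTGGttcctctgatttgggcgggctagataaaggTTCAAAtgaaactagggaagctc
Espl1: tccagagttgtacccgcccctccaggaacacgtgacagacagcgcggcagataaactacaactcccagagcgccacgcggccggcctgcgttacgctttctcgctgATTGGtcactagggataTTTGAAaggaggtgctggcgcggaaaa
Kif11: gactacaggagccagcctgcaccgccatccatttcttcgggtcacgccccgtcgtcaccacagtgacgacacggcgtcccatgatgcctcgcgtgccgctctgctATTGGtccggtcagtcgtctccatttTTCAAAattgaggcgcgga
Kif15: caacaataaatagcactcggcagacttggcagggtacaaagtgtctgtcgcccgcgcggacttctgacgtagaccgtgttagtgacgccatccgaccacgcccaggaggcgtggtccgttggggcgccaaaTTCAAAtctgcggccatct

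These replication promoters are shown because they hold the E2F word, which capitals mark together with CCAAT, again on either strand; in Mcm6 overlapping matches form 1 longer run. Mcm5 lies on the plus strand at chr8:75109359-75109508, Mcm6 on the minus strand at chr1:128359706-128359855 and Pola1, the catalytic subunit of the polymerase that starts new strands, on the minus strand at chrX:93632156-93632305.
Mcm5: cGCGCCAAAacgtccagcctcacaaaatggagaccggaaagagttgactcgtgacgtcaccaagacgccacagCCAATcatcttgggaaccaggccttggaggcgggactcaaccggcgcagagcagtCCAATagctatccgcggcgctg
Mcm6: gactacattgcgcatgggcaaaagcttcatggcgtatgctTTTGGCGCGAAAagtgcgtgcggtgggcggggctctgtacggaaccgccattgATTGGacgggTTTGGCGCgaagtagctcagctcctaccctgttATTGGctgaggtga
Pola1: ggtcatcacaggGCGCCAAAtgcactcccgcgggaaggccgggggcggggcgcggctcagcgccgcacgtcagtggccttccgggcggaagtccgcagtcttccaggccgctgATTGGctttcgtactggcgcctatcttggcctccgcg

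Within the mitosis list, the 31 genes with TTTGAA had a median change of -0.50 and the 13 without it one of -0.48, and 23 and 8 of them were called lower. The difference between these sets was not tested. A match is a description of letters in this window and no measure of binding. Words of neuronal basic helix-loop-helix factors were searched in the same way. CAGATG was in 9.71% of all promoters, in 11% of those of genes called higher and in 11% of those called lower. CAGCTG was in 13.1%, 18.0% and 12.7% of these sets.

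**Figure D2:**
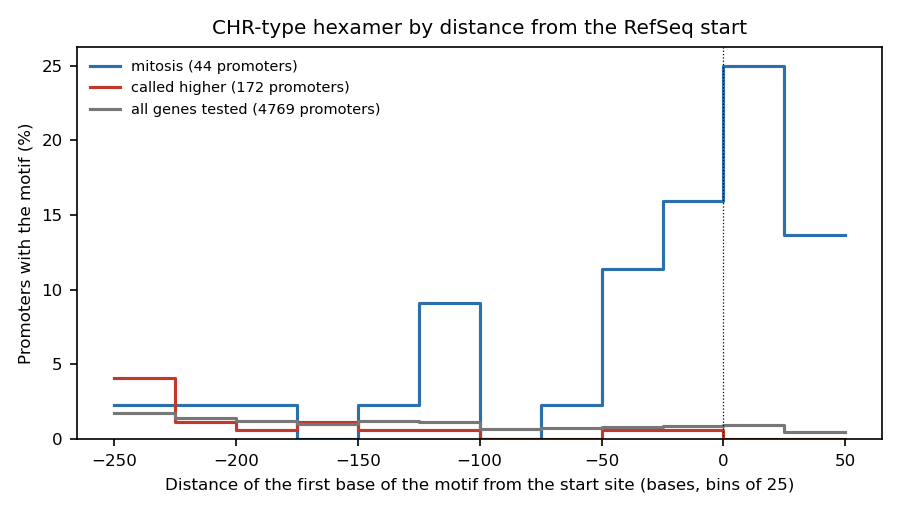
Share of promoters with TTTGAA on either strand (vertical axis, percent) by the distance of its first base from the RefSeq start (horizontal axis, bases, bins of 25) for the mitosis list, for genes called higher and for all genes tested. In the mitosis list 25% of promoters hold it in the first 25 bases after the start and 15.9% in the 25 before, far above the line of all genes.

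Regulators of entry into the cell cycle were mostly lower. Of 13 G1 cyclins and cell cycle exit genes, 3 (23.1%) were called lower and 1 (7.69%) higher (median -0.24), beside 4.78% and 3.95% of all genes. Without overlap 10 lay below and 1 above, beside 45.4% and 24.7% of all genes. Ccnd1, cyclin D1, fell from 199.7 and 206 TPM to 118 and 119.7 TPM (change -0.76, SE 0.08, limma adjusted p = 4.37e-04). Ccnd2, cyclin D2, was the most abundant of the genes called lower and fell from 2712 and 2758 TPM to 2167 and 2055 TPM (change -0.37, SE 0.09, limma adjusted p = 0.0281). Rbl1, a relative of the retinoblastoma protein, was the other gene called lower. Cdk5, a kinase that acts in neurons and does not drive the cell cycle, rose from 49.2 and 54.5 TPM to 65.0 and 63.6 TPM. In each fit that left out 1 of the 4 libraries 1 of the 13 genes was called lower and 0 higher.

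Markers of apical progenitors were mostly lower at E14. Of 22 markers, 6 (27.3%) were called lower and 2 (9.09%) higher (median -0.24), beside 4.78% and 3.95% of all genes. For 14 markers both E14 libraries lay below both of E12.5, beside 45.4% of all genes. Sox2, which holds cells in the progenitor state, fell from 211 and 203 TPM to 159.8 and 150.3 TPM (change -0.42, SE 0.08, limma adjusted p = 0.00752). Id4, an inhibitor of neurogenic basic helix-loop-helix factors, fell from 1186 and 1124 TPM to 766 and 771 TPM (change -0.59, SE 0.09, limma adjusted p = 0.00362). Gas1, a cell surface partner of the Hedgehog receptor, fell from 227 and 215 TPM to 119 and 123 TPM. Sox3, Prom1 and Phgdh made up the 6. The stages did not overlap for any of them.

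The 2 markers called higher were Dbi, which binds acyl-CoA, from 343 and 339 TPM to 507 and 486 TPM, and Tnc, the matrix protein tenascin C, from 1.65 and 1.76 TPM to 3.29 and 3.42 TPM. Fabp7, the fatty acid binding protein of radial glia, was at 757 and 704 TPM and then at 933 and 932 TPM, with a change of 0.35 that did not pass (limma adjusted p = 0.171). Nes and Vim, intermediate filaments of progenitors, had changes of -0.32 and -0.17 and did not pass. Without 1 of the 4 libraries at most 1 of the 6 lower calls was left.

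Genes known to mark early, neuroepithelial progenitors were lower as well. Of 11 genes, 5 (45.5%) were called lower and 1 (9.09%) higher (median -0.50), beside 4.78% and 3.95% of all genes. Of the 11, 10 lay below without overlap, beside 45.4% of all genes. Hmga2, a chromatin protein of young stem cells (chromosome 10, 120361275 to 120476469, minus strand, GRCm38), fell from 247 and 222 TPM to 79.8 and 79.0 TPM (change -1.55, SE 0.22, limma adjusted p = 0.00247). It went on to 8.44 TPM at E15.5 and 0.608 TPM at P0. Crabp2, a carrier of retinoic acid that is also in the meninges list, fell from 98.3 and 94.4 TPM to 43.3 and 34.3 TPM (change -1.30, SE 0.14, limma adjusted p = 4.77e-04). Its relative Crabp1 rose from 24.3 and 20.8 TPM to 33.0 and 31.8 TPM, and so both carriers passed in opposite directions. Dach1, a transcription factor, and Hmgb2, a chromatin protein of dividing cells, were also called, with Ccnd1. Mest, an imprinted gene, was at 334 and 322 TPM and then at 219.8 and 233 TPM and missed the threshold (limma adjusted p = 0.077). Without 1 of the 4 libraries 3 of the 5 lower calls were left in each fit.

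Of 5 tested markers of intermediate progenitors 0 were called, with a median of 0.07, and 4 had a change above 0. Both E14 libraries lay above both of E12.5 for 2 of them, Insm1 and Sox11, and below for 0. The list summed to 2045 and 1943 TPM and then to 2276 and 2218 TPM, and 1 (upward) was called in the 4 libraries alone. Eomes, whose libraries overlapped between the stages as given above, did not carry this rise in the sum.

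Signalling genes of progenitors had lower medians than all genes (-0.06), with few calls, and the Wnt list differed by little. Among 10 Notch pathway genes none was called (0 in each direction), with a median of -0.21. Without overlap 7 lay below and 3 above, beside 45.4% and 24.7% of all genes. Notch1, the receptor that keeps progenitors undifferentiated, was at 35.5 and 39.5 TPM and then at 26.7 TPM in both E14 libraries (change -0.47, SE 0.23, limma adjusted p = 0.223). With the 4 libraries alone 6 of the 10 were called lower and 1 higher, beside 26.9% and 14.1% of all genes. Of 20 Hedgehog, BMP and FGF genes, 5 were called lower and 0 higher (median -0.26): Gas1, Id4, the glypicans Gpc6 and Gpc4, which present growth factors at the cell surface, and Smad3, a TGF-beta effector. Gpc6 fell from 38 and 38.5 TPM to 23.0 and 23.9 TPM (change -0.68, SE 0.15, limma adjusted p = 0.0197).

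Of 19 Wnt genes (median -0.09) 1 was called, which is 5.26% called lower, beside 4.78% of all genes. That gene, Sfrp1, a secreted inhibitor of Wnt, fell from 747 and 731 TPM to 455 and 468 TPM (change -0.68, SE 0.14, limma adjusted p = 0.0144). Among 22 genes of Hippo signalling and the apical junction (median -0.18), 3 (13.6%) were called lower and 1 (4.55%) higher, beside 4.78% and 3.95% of all genes. The genes called lower included Yap1, the growth co-activator, from 154 and 157 TPM to 113 and 108 TPM, and Crb2, an apical polarity protein. Prkcz, an atypical protein kinase C, was called higher, from 17.9 and 17.6 TPM to 25.2 and 25.8 TPM. Of 11 imprinted growth genes (median -0.12) 1 was called: Grb10, an adaptor that restrains growth factor signals, fell from 454 and 470.3 TPM to 325 and 320.4 TPM. In the fits that left out 1 of the 4 libraries at most 1 Hedgehog, BMP and FGF gene was called, and 0 of the Wnt, Hippo and imprinted genes.

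Extracellular matrix and integrin genes were mostly lower. Of 38 tested genes, 17 (44.7%) were called lower and 1 (2.63%) higher (Tnc), beside 4.78% and 3.95% of all genes. The list's median was -0.45, and 32 lay below without overlap, beside 45.4% of all genes. The list summed to 1348 and 1396 TPM at E12.5 and to 1018 and 1031 TPM at E14. Fn1, fibronectin, fell from 23.4 and 24.9 TPM to 12.2 and 12.8 TPM (change -0.90, SE 0.17, limma adjusted p = 0.0105). Col4a1, a collagen of basement membranes, fell from 39.5 and 43.4 TPM to 23.5 and 25.3 TPM (change -0.74, SE 0.13, limma adjusted p = 0.00598). Serpinh1, a collagen chaperone, fell from 252 and 258 TPM to 178 and 176 TPM. The groups were apart for each. Col3a1, a fibrillar collagen of connective tissue, fell from 47.3 and 49.5 TPM to 28.8 and 27.0 TPM and averaged 0.394 TPM at E15.5, a level to which the limit on dissection given above applies.

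Col3a1, Col1a1, Col1a2 and Lum are also in the meninges list, all called lower beside Prrx1 and Crabp2, and the summed level of that list moved with the matrix genes as given above. Fbln1, an elastic fibre protein, Col18a1, a basement membrane collagen outside the lists, and Mcam, an adhesion protein of vessels and mesenchyme, fell as well, by 0.78, 0.79 and 0.64 on the log2(TPM + 1) scale. The part of meninges and vessels in the fall was not tested. Between 1 and 4 of the 38 genes were called lower when 1 of the 4 libraries was left out, and 31 without both E17 libraries.

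Markers of newborn neurons were mostly higher. Of 37 genes, 12 were called higher and 0 lower, against 3.95% of all genes called higher, with a median of 0.32. Both E14 libraries lay above both of E12.5 for 32 of the 37, against 24.7% of all genes. The list summed to 11889 and 11996 TPM at E12.5 and to 15117 and 14630 TPM at E14. The largest rise was that of Sla, an adaptor protein of the Src family pathway (chromosome 15, 66780819 to 66831829, minus strand, GRCm38), from 15.3 and 16.5 TPM to 57.3 and 59.0 TPM (change 1.81, SE 0.09, limma adjusted p = 1.36e-06). Myt1l, a transcription factor that represses non-neuronal genes, rose from 21.7 and 22.1 TPM to 35.1 and 35.6 TPM (change 0.67, SE 0.14, limma adjusted p = 0.0164). Thra, a thyroid hormone receptor, rose from 259.6 and 275 TPM to 376 and 367 TPM. None of these groups overlapped.

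Some classical markers moved the same way and missed the threshold. Dcx, doublecortin, was at 1013 and 979.8 TPM and then at 1389 and 1390.1 TPM (change 0.48, SE 0.14, limma adjusted p = 0.0586). Tubb3, the neuronal beta tubulin, was at 623 and 693 TPM and then at 881 and 771 TPM (limma adjusted p = 0.0628). Neurod2, a neuronal differentiation factor, was at 249 and 246 TPM and then at 328 and 314 TPM (limma adjusted p = 0.0987). When 1 of the 4 libraries was left out, between 4 and 6 of the 37 genes were called, without both E17 libraries 30, and with median-of-ratios scaling 21.

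Of 44 genes of the neuronal microtubule and growth cone, 11 were called higher and 0 lower (median 0.25), and 30 lay above without overlap. Mapt, the microtubule binding protein tau, rose from 82.8 and 90.4 TPM to 164 and 139 TPM (change 0.80, SE 0.11, limma adjusted p = 0.00247). Dync1i1, the neuronal intermediate chain of the motor dynein, rose from 5.66 and 6.38 TPM to 14.6 and 12.9 TPM (change 1.07, SE 0.10, limma adjusted p = 4.35e-04). Of the stathmins, which bind free tubulin, Stmn2 rose from 483 TPM in both E12.5 libraries to 725 and 709 TPM, Stmn3 from 254 and 269.6 TPM to 384 and 371 TPM, and Stmn4 from 56.1 and 57.1 TPM to 93.1 and 91.4 TPM. Gap43, a growth cone membrane protein, rose from 178 and 169 TPM to 269 and 239.8 TPM. Tubulin Tubb2a and the kinesin Kif5a were also called. Between 3 and 8 of the 44 were called when 1 of the 4 libraries was left out.

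**Figure D3:**
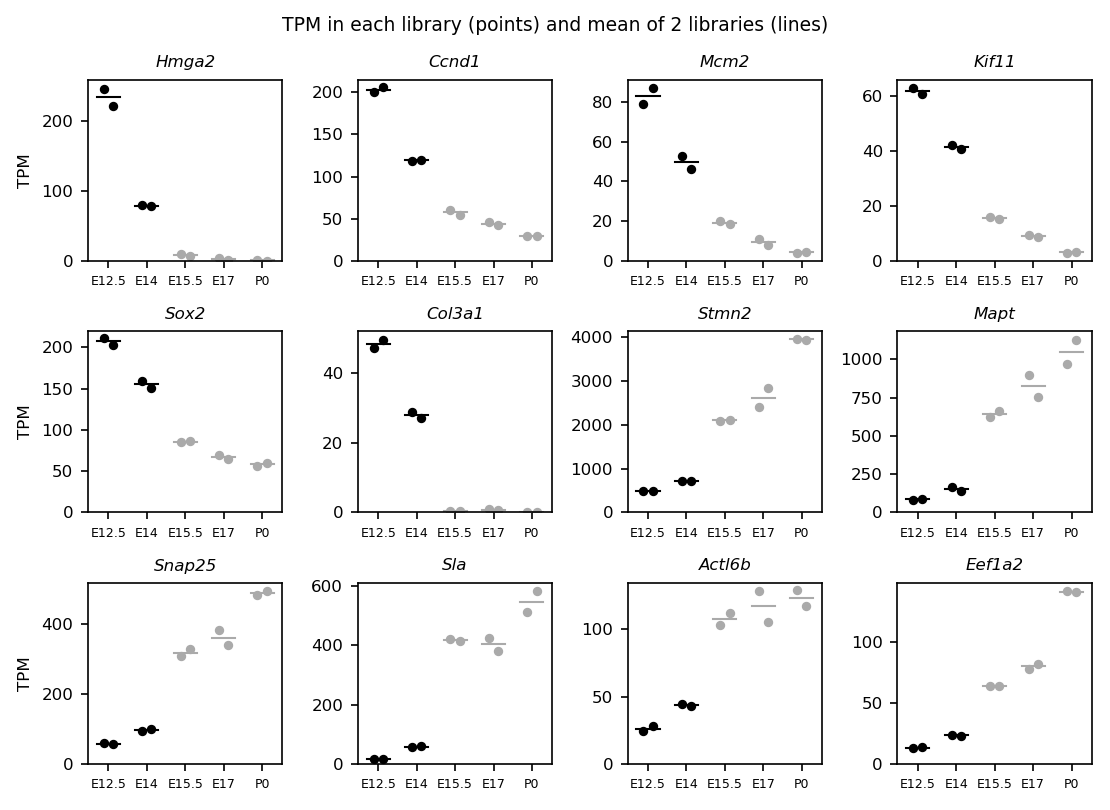
TPM of 12 genes in each library (points) with the mean of the 2 libraries of a stage (lines); E12.5 and E14 are in black and the later stages, which are not part of the comparison, in grey. The vertical axes are linear and start at 0. Genes of dividing progenitors such as Hmga2 and Mcm2 are lower in both E14 libraries than in both of E12.5, and neuronal genes such as Mapt and Snap25 are higher.

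Calls among layer markers were all upward, in both the deep and the upper group. Of 10 deep layer genes 5 were called higher and 0 lower (median 0.41). Crym, a thyroid hormone binding protein, rose from 11.5 and 11 TPM to 21.5 and 18.7 TPM (change 0.78, SE 0.12, limma adjusted p = 0.00421). Ldb2, a co-factor of LIM transcription factors, rose from 12.9 and 13.1 TPM to 20.1 and 22.5 TPM (change 0.67, SE 0.09, limma adjusted p = 0.00247). Sox5, which controls the order of deep layer neurons, rose from 122 and 116 TPM to 164 and 168 TPM (change 0.48, SE 0.13, limma adjusted p = 0.0464). Ppp1r1b, a phosphatase inhibitor, and Lmo7 were the other 2. Bcl11b, a regulator of neurons that project below the cortex, was at 114 and 109.6 TPM and then at 147 and 137 TPM and did not pass (limma adjusted p = 0.154).

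Of 8 upper layer genes 4 were called higher and 0 lower (median 0.34), and 6 lay above without overlap and 2 below. Mef2c, an activity-regulated transcription factor, rose from 43.3 and 38 TPM to 56.1 and 59.0 TPM (change 0.50, SE 0.12, limma adjusted p = 0.0234), and Cdh13 and Lpl were also called. The 2 below were Cux1, a transcription factor, at 55.6 and 58.9 TPM and then at 47.9 and 48.9 TPM, and the semaphorin receptor Plxnd1, at 21.8 and 24.7 TPM and then at 18.4 and 18.3 TPM. Cajal-Retzius and subplate genes gave 2 calls of 6 (33.3%), Cdh13 and the adhesion protein Chl1. Reln, the secreted signal of Cajal-Retzius cells, overlapped between the stages, at 19.1 and 21.7 TPM and at 18.5 and 20.3 TPM. With 1 of the 4 libraries left out, 2 or 3 of the 10 deep layer genes and 0 of the 8 upper layer genes were called.

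**Figure D4:**
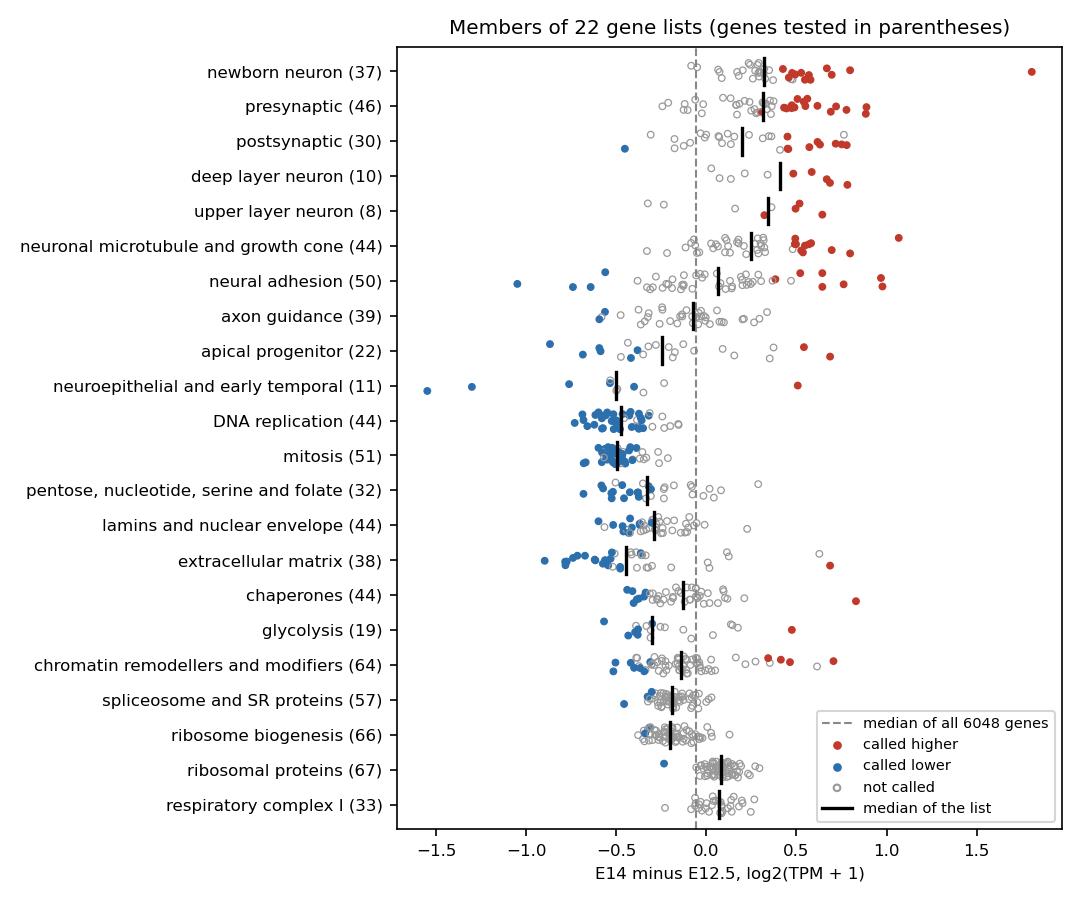
Change from E12.5 to E14 (horizontal axis, difference of means on the log2(TPM + 1) scale) of each tested member of 22 gene lists. Filled red and blue points were called higher and lower, open points were not called, black bars are list medians and the dashed line is the median of all genes. All points of the DNA replication and mitosis lists lie below 0, and most points of the newborn neuron and presynaptic lists lie above it.

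Genes of the presynaptic release machinery were mostly higher at E14. Of 46 genes, 16 (34.8%, beside 3.95% of all genes) were called higher and 0 lower (median 0.32). Of the 46, 37 lay above without overlap, beside 24.7% of all genes. The list summed to 2572 and 2613 TPM at E12.5 and to 3228 and 3238 TPM at E14. Snap25, a membrane SNARE of vesicle fusion, rose from 60.1 and 56.8 TPM to 93.2 and 101 TPM (change 0.72, SE 0.08, limma adjusted p = 5.32e-04). Cplx1, complexin 1, which clamps the SNAREs, rose from 63.6 and 62.2 TPM to 119.8 and 115 TPM (change 0.89, SE 0.09, limma adjusted p = 4.35e-04). Rab3c, a vesicle GTPase, rose from 179 and 169 TPM to 285 and 315 TPM. Syt1, the calcium sensor of release, rose from 30.1 and 30.7 TPM to 42.3 and 47.7 TPM, and Vamp2, the vesicle SNARE, from 252 and 249.9 TPM to 330.0 and 348 TPM. Rph3a, which binds Rab3, had 3.58 and 4.6 TPM and then 8.99 and 7.77 TPM, a rise of 0.88. Between 3 and 7 of the 46 were called when 1 of the 4 libraries was left out.

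Of 30 postsynaptic genes 9 (30.0%) were called higher and 1 (3.33%) lower (median 0.20), beside 3.95% and 4.78% of all genes. Gria1, an AMPA receptor subunit, rose from 12.502 and 12.4 TPM to 21.7 and 22.5 TPM (change 0.78, SE 0.13, limma adjusted p = 0.00539). Dlg2, a scaffold of the postsynaptic density, rose from 8.81 and 8.56 TPM to 15.3 TPM in both E14 libraries. Grin2b, an NMDA receptor subunit, was at 9.60 and 9.28 TPM and then at 16.3 and 17.1 TPM, a change of 0.76 with an SE of 0.28 that did not pass (limma adjusted p = 0.123).

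Both main subunits of calcium/calmodulin kinase II were called, in opposite directions. Camk2b rose from 16.6 and 17.7 TPM to 31.9 and 26.1 TPM (change 0.72, SE 0.11, limma adjusted p = 0.00333). Camk2a fell from 13.3 and 14.6 TPM to 10.2 and 9.69 TPM (change -0.45, SE 0.12, limma adjusted p = 0.0389), before a rise to 36.1 TPM at P0. Camk2a is the 1 postsynaptic gene called lower. With 1 of the 4 libraries left out, 2 to 4 postsynaptic genes were called higher and 0 lower. Of 23 ion channel and pump genes 1 (4.35%) was called higher and 1 (4.35%) lower, beside 3.95% and 4.78% of all genes. The first was the sodium pump subunit Atp1b1. The second was Slc12a2, the chloride importer of immature neurons and progenitors, which is also in the choroid plexus list. Slc12a2 went from 32.6 and 31.0 TPM to 23.0 and 24.2 TPM. Slc12a2 was not called in any fit that left out 1 of the 4 libraries, and Atp1b1 in 1 of them.

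Cell surface genes split. Of 50 neural adhesion genes 7 were called higher and 4 lower (median 0.06). Opcml and Chl1, neuronal members of the immunoglobulin superfamily, rose from 17.4 and 15.4 TPM to 30.8 and 35.7 TPM and from 17.7 and 17.3 TPM to 32.9 and 37.6 TPM. Lrrn1, a leucine-rich repeat protein of progenitors, fell from 78.1 and 80.3 TPM to 37.0 and 38.5 TPM (change -1.05, SE 0.10, limma adjusted p = 4.35e-04). The giant cadherin Fat1 fell from 18.3 and 20.2 TPM to 10.7 and 11.5 TPM. With 1 of the 4 libraries left out, 3 or 4 were called higher and 1 or 2 lower. Of 39 axon guidance genes 0 were called higher and 2 (5.13%) lower, beside 4.78% of all genes (median -0.07): the repellent Slit2 from 15.8 and 16.4 TPM to 9.79 and 10.9 TPM and the ephrin Efna5 from 14.8 and 15.2 TPM to 9.44 and 10.3 TPM, and neither was called when 1 of the 4 libraries was left out.

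Among 64 chromatin genes 4 (6.25%) were called higher and 7 (10.9%) lower (median -0.14), beside 3.95% and 4.78% of all genes. All 4 that rose are subunits of BAF, the remodelling complex that exchanges subunits as progenitors become neurons. Actl6b, the neuronal actin-like subunit, rose from 24.7 and 27.8 TPM to 44.1 and 42.6 TPM (change 0.71, SE 0.11, limma adjusted p = 0.00339). Ss18l1, the neuronal counterpart of Ss18, rose from 67.5 and 65.6 TPM to 93.2 and 91.2 TPM (change 0.46, SE 0.09, limma adjusted p = 0.0106). Dpf1 rose from 61.3 and 63.4 TPM to 79.0 and 79.7 TPM, and the ATPase Smarca2 was the other gene.

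The progenitor counterparts had smaller differences that did not pass. Actl6a was at 118 and 125.1 TPM and then at 103 and 97.8 TPM (change -0.27, SE 0.09, limma adjusted p = 0.0855). Ss18 was at 95.2 and 87.0 TPM and then at 84.5 and 84.9 TPM (change -0.10, SE 0.09, limma adjusted p = 0.495). The 7 that fell include the DNA methyltransferases Dnmt1, which also counts among the replication genes, and Dnmt3a, from 98.1 and 101 TPM to 76.1 and 72.6 TPM, and the histone variant H2afx, from 855 and 853 TPM to 634 and 571 TPM. When 1 of the 4 libraries was left out, 0 or 1 chromatin gene was called higher and 0 lower.

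Of 42 neural RNA-binding regulators 3 (7.14%) were called higher and 1 (2.38%) lower (median -0.12), beside 3.95% and 4.78% of all genes. Rbfox1, a splicing regulator of neurons, rose from 24.4 and 24.8 TPM to 42.8 and 42.0 TPM (change 0.76, SE 0.09, limma adjusted p = 9.84e-04), and Cpeb4 and Celf4 rose as well. Hnrnpu, a nuclear RNA-binding protein, fell from 517 and 506 TPM to 405 and 396 TPM. Of 57 spliceosome and SR genes 3 (5.26%) were called lower, beside 4.78% of all genes, and 0 higher. Yet 45 of the 57 lay below without overlap, against 45.4% of all genes, with a median of -0.19. In the 4 libraries alone 38 of the 57 were called lower, beside 26.9% of all genes. Srsf2, an SR protein, fell from 870.4 and 868 TPM to 725 and 685 TPM (change -0.30, SE 0.08, limma adjusted p = 0.0455), and Lsm2 and Sf3a3 were the others. Fits that left out 1 of the 4 libraries called 1 or 2 of the RNA-binding regulators, upward, and 0 of the spliceosome genes.

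Nuclear envelope and pore genes gave 10 calls lower (22.7%, beside 4.78% of all genes) and 0 higher of 44 (median -0.29). Of the 44, 41 lay below without overlap, beside 45.4% of all genes. Lmnb1, lamin B1, fell from 406 and 408 TPM to 315 and 296 TPM (change -0.41, SE 0.08, limma adjusted p = 0.0124). Lbr, the lamin B receptor, fell from 67.3 and 68.4 TPM to 42.0 and 47.1 TPM (change -0.60, SE 0.14, limma adjusted p = 0.0229). Ran, the GTPase of nuclear transport, fell from 1226 and 1161 TPM to 972 and 962 TPM (change -0.30, SE 0.07, limma adjusted p = 0.0273). When 1 of the 4 libraries was left out, at most 2 of the 44 were called.

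Biosynthetic genes of growing cells were mostly lower at E14. Of 32 genes of pentose, nucleotide, serine and folate metabolism 14 (43.8%, beside 4.78% of all genes) were called lower and 0 higher (median -0.33). Of the 14, 5, among them Dut, Rrm1, Rrm2 and Tyms, are shared with the replication list. Paics, an enzyme of purine synthesis, fell from 315 and 320.3 TPM to 238 and 224 TPM (change -0.46, SE 0.07, limma adjusted p = 0.0049). Shmt1, which passes carbon from serine to folate, fell from 31.9 and 33.2 TPM to 22 and 20.8 TPM. Psat1, of serine synthesis, fell from 372 and 391 TPM to 320.0 and 297 TPM.

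Of 19 glycolysis genes 6 (31.6%) were called lower and 1 (5.26%) higher (median -0.30), beside 4.78% and 3.95% of all genes. Slc2a1, a glucose transporter, fell from 68.1 and 72.4 TPM to 45.1 and 49.1 TPM (change -0.57, SE 0.13, limma adjusted p = 0.0203), and Pkm, pyruvate kinase, from 848 and 929.9 TPM to 717 and 648 TPM (change -0.38, SE 0.08, limma adjusted p = 0.0149). The enolase isozymes passed in opposite directions: Eno1 fell from 319 and 359.9 TPM to 279 and 237 TPM, and Eno2, the neuronal form, rose from 15.1 and 15.6 TPM to 22.8 and 20.6 TPM (change 0.47, SE 0.10, limma adjusted p = 0.0127). Slc2a1, Pdk1 and Pgk1 are also 3 of 12 hypoxia response genes, whereas Ndrg1 of that list rose from 26.5 and 32.1 TPM to 56.6 and 53.7 TPM. Without 1 of the 4 libraries at most 2 of the nucleotide list and at most 1 of the glycolysis list were called lower. Of the genes of oxidative phosphorylation, 0 of 33 genes of respiratory complex I and 0 of 31 of respiratory complexes II to V were called, with medians of 0.07 and 0.02 that a correction for length and GC content turned to -0.00322 and -0.04. At an adjusted p under 0.05 in the 4 libraries alone, 8 and 8 of them were higher and 1 and 2 lower. Among all genes 14.1% were called higher and 26.9% lower in that fit. Of 21 cholesterol synthesis genes 3 were called lower, among them Sqle, an early enzyme of the sterol branch, and 0 when 1 of the 4 libraries was left out.

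Among chaperones, 7 of 44 (15.9%) were called lower and 1 (2.27%) higher (median -0.13), beside 4.78% and 3.95% of all genes. Of the 7, 6 act in the endoplasmic reticulum: Hsp90b1, from 179 and 174 TPM to 123 and 137 TPM, Canx, from 261 and 254 TPM to 189 and 200.2 TPM, Pdia4, Pdia3, P4hb and Hspa5. Hspd1 is mitochondrial. Hspa12a, an unusual member of the Hsp70 family, rose from 21.2 and 21.7 TPM to 39.7 and 38.2 TPM (change 0.83, SE 0.12, limma adjusted p = 0.00296). At most 2 of the 44 were called lower when 1 of the 4 libraries was left out.

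Ribosomal protein genes and the factors that build ribosomes had medians on opposite sides of 0, before any correction for coding length and GC content. Over all genes the change was lower for longer coding sequences (Spearman's rho -0.21). Of 67 ribosomal protein genes (median 0.08) 44 lay above without overlap and 3 below, beside 24.7% and 45.4% of all genes. None was called upward (0), and 19 were called higher in the 4 libraries alone, beside 14.1% of all genes. The list summed to 9.06% and 9.0% of all TPM at E12.5 and to 9.71% and 9.62% at E14. The 1 call, and the smallest change of any called gene, was Rpl7l1, which acts in ribosome assembly, from 246 TPM in both E12.5 libraries to 210.1 and 208 TPM (change -0.23, SE 0.06, limma adjusted p = 0.0465). Of 66 ribosome biogenesis genes (median -0.20) 54 lay below without overlap and 1 above, beside 45.4% and 24.7% of all genes. Of the 66, 2 (3.03%) were called in the fit of all stages, Noc2l and Dkc1, beside 4.78% of all genes called lower. In the 4 libraries alone 40 were called, all lower, beside 26.9% of all genes. None (0) of these ribosomal or biogenesis genes was called when 1 of the 4 libraries was left out.

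Of 49 translation factors 2 (4.08%) were called higher, beside 3.95% of all genes, and 0 lower. The list's median was -0.10, with 26 below without overlap and 7 above, beside 45.4% and 24.7% of all genes. Eef1a2, the elongation factor form of mature neurons, rose from 12.7 and 13.9 TPM to 24.1 and 22.9 TPM (change 0.77, SE 0.08, limma adjusted p = 4.37e-04), and Eif4a2, an initiation helicase, from 242 and 229 TPM to 298 and 329 TPM (change 0.41, SE 0.09, limma adjusted p = 0.0214). Of the pair 1 was called in each fit that left out 1 of the 4 libraries. Pa2g4, which encodes the ribosome-associated protein Ebp1 and has a category of its own in the deposited table, fell from 248 and 255 TPM to 209.7 and 205 TPM (change -0.28, SE 0.08, limma adjusted p = 0.0491). It was the 1 of 27 nascent chain factors to be called (3.7%, beside 4.78% of all genes called lower), and it did not pass without any 1 of the 4 libraries. Mitochondrial ribosome and proteasome genes gave 0 calls of 53 and 0 of 39, with medians of -0.07 for both.

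Many called genes stand outside the lists, 161 of the 239 that rose and 121 of the 289 that fell. Of the genes that rose most, Spock1, a neural proteoglycan, went from 8.99 and 8.27 TPM to 18.7 and 19.8 TPM, Mpped1 from 213 and 215 TPM to 419 and 417 TPM, and Rab9b from 8.62 and 6.29 TPM to 15.0 and 15.3 TPM. Nr4a3, an orphan nuclear receptor, rose from 17.9 and 20.6 TPM to 37.5 and 37.2 TPM. Grik3, a kainate receptor subunit, rose from 19.4 and 21.0 TPM to 37.4 and 39.9 TPM. Among the genes that fell most, Msrb3, which repairs oxidised methionine, went from 98.5 and 96.2 TPM to 49.3 and 52.1 TPM. All of these groups were apart, and Grik3 alone of the 6 failed in every fit that left out 1 of the 4 libraries (adjusted p up to 0.168).

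The most abundant called genes changed by less. Gng2, a G protein gamma subunit, rose from 2702 and 2605 TPM to 3761 and 3904 TPM (change 0.53, SE 0.12, limma adjusted p = 0.022). Mllt11 rose from 956 TPM in both E12.5 libraries to 1372 and 1415 TPM (change 0.54, SE 0.11, limma adjusted p = 0.0139). Abracl, a small regulator of the actin skeleton, rose from 565 and 522 TPM to 703 and 766 TPM. Zbtb18, a transcriptional repressor needed in cortical neurons, rose from 589 and 577 TPM to 734 and 781 TPM, and Hsbp1, which binds heat shock factor 1, from 643 and 648 TPM to 805 and 824 TPM. In the other direction stood Hmgb2, from 1120.5 and 1086 TPM to 850.0 and 821 TPM, Nucks1, a chromatin protein, from 919.8 and 844 TPM to 688 and 702 TPM, Hn1l from 537 and 545 TPM to 377 and 388 TPM, and Mlec, a lectin of the endoplasmic reticulum, from 450.0 and 469 TPM to 324 and 338 TPM. Summed over all genes called higher, the level went from 1.88% and 1.87% to 2.73% and 2.76% of all TPM, and over those called lower from 3.94% and 3.96% to 2.94% and 2.88%.

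The same genes were read in a later contrast that shares no library with the first, P0 against E15.5. Both contrasts come from 1 fit and share the spread of each gene, so a gene with a low spread passes more easily in both. The shares called below are therefore not independent of the first calls. Of the 239 genes that rose from E12.5 to E14, 194 (81.2%) were higher at P0 than at E15.5 and 159 (66.5%) were called so, against 41.7% and 19.5% of all genes. Of the 289 that fell, 247 (85.5%) were lower at P0 and 207 (71.6%) were called so, against 58.3% and 30.7% of all genes. The median later change was 0.50 for the first set, -0.65 for the second and -0.09 for all genes.

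Called changes in opposite directions were made by 44 genes, a smaller share than among all genes. Of the genes that rose first, 20 (8.37%) were called lower later, against 30.7% of all genes. Of those that fell first, 24 (8.3%) were called higher later, against 19.5% of all genes. Abracl averaged 544, 735, 624, 406 and 264 TPM from E12.5 through E14, E15.5 and E17 to P0. Sox5 averaged 119, 166, 175, 113 and 59.2 TPM over these stages, and Tiam2, an activator of Rac, 32.5, 52.1, 82.4, 66.7 and 30.0 TPM. These 3 genes were highest in the middle stages. Sqle was called lower at first and higher later, with averages of 91.5, 75.4, 67.3, 107 and 85.2 TPM, lowest at E15.5 and highest at E17. Efna5 and Camk2a fell early and rose later as well. These genes were chosen after their values were seen.

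**Figure D5:**
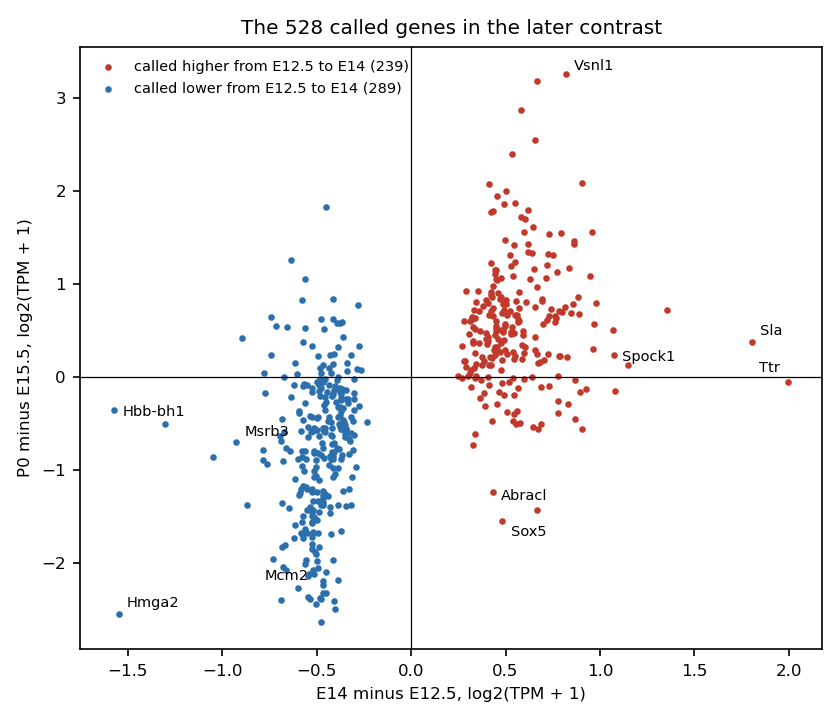
Change from E15.5 to P0 (vertical axis) against change from E12.5 to E14 (horizontal axis) for the 528 called genes, both as differences of means on the log2(TPM + 1) scale; the 2 contrasts share no library. Of the red points (called higher from E12.5 to E14) 194 lie above 0 on the vertical axis, and of the blue points (called lower) 247 lie below it.

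Gene length and base composition went weakly with the change. Over the 6048 genes, which are not independent replicates, Spearman's rho of the change with coding length was -0.21 and with coding GC content 0.12. Genes that rose had a median coding length of 1263 bases and those that fell one of 1716, beside 1509 for all genes. A linear correction of each library for both raised the calls to 423 higher and 611 lower and changed the sign of none of the 528 calls (0).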

How the data were processed

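The authors deposited 1 table of TPM, with a gene identifier, a name and a category for each gene and 1 column per library, per the file headers; 0 columns were left without a sample. Per the submitters' processing notes, STAR and Subread and the build GRCm38.p5 were used; neither the length behind each TPM nor the rule for the 6147 rows is stated. The listed genes summed to 71.6% and 71.7% of all TPM at E12.5 and 71.3% and 70.8% at E14, so the deposited values were scaled over further genes. Libraries were grouped by the stage in the labels.

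TPM were analysed as log2(TPM + 1), so a change understates the fold of low genes. Differences were tested by limma 3.58.1 (R 4.3.3) fitted to all 10 libraries with a mean for each stage, empirical Bayes moderation with a variance trend, and Benjamini-Hochberg adjustment over 6048 genes, called under 0.05. The median SE was 0.107. On simulated data of this comparison with 6048 genes, 195 of 200 genes shifted by 1 log2 unit and 122 of 200 shifted by 0.5 were recovered, with 11 and 4 false calls. The simulation gave each gene 1 spread in all stages, whereas the E17 replicates lay farther apart than those of E12.5 and E14. These counts therefore need not hold for the real libraries. A test of 2 libraries against 2 alone cannot give an exact p below 0.333.

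The genes named were, among called genes averaging at least 10 TPM, the top 12 upward and the top 12 downward by size of change, the 6 most abundant each way, the 6 most abundant each way with a change of 0.4 to 0.8, members of each list described, the called gene with the smallest change, and Pa2g4. The members, the gene lists and the tests were chosen with earlier results of these data known. Lists hold the members present in the table; other genes were not analysed here. Some members counted in the lists are not reported here by name. Positions and coding lengths are from GENCODE M21 (GRCm38) and promoters from RefSeq (GRCm38.p6), of which the first window listed for a gene was searched. Alternatives were other pseudocounts, filters, scalings, variance models, sets of libraries, each library left out, a replicate block, and adjustment of each library for coding length and GC. Figures were drawn in matplotlib 3.10.9 and tables made in pandas 2.3.3 (Python 3.11.15).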

Additional observations from a re-analysis of the deposited data

How the results depend on the processing

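No named gene that was called changed direction under any alternative, while Eomes and Reln, both uncalled and near 0, changed sign under some. Alternatives that changed only the libraries of other stages or the variance model keep the estimated change as it is and could not reverse a direction. The number of calls (528, of which 239 higher and 289 lower) moved mainly with the libraries that set the spread: 1770 (661 and 1109) without both E17 libraries, 2479 (850 and 1629) with the 4 libraries of E12.5 and E14 alone, 2634 (911 and 1723) with the 6 libraries up to E15.5, and 2411 (845 and 1566) with array weights. Leaving out each library in turn gave between 65 and 1769 calls, 56 to 662 higher and 9 to 1107 lower, the fewest without E12.5 replicate 1 and the most without E17 replicate 1. Quantile normalization gave 899 calls with 467 higher, median-of-ratios scaling 432 higher, a pseudocount of 10 TPM 453 lower, and the correction for coding length and GC content 1034 calls (423 and 611). At an adjusted p under 0.01 there were 152 calls (101 and 51), and with a change of at least 0.5 as well as an adjusted p under 0.05 there were 248 (128 and 120); both set a stricter limit. The cause of the other shifts was not tested.

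Replicate numbers do not pair the libraries: the deviations of replicate 1 at E12.5 and at E14 correlated with -0.28 over genes, and other pairs of stages with -0.37 to 0.11. A replicate block gave 462 calls (226 higher and 236 lower) over all libraries and 1985 (702 and 1283) in the 4 libraries alone. The crossed pairing, chosen after seeing the data, gave 3161 (1097 and 2064). Depth is unknown for these values, so its part in the limits of genes with low TPM cannot be given.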
